A study of Bos taurus with 2 samples.

Results

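The granins and their partners in the secretory granule were followed in bovine seminiferous tubules, where sperm cells form, of 1 calf at 9 months of age and 1 at 3 months. The set held 7 genes of the 24616 genes listed in each table: the granins CHGA, CHGB, SCG2 and SCG3, the chaperone SCG5, the inhibitor PCSK1N and the protease CPE. They were found by symbol, and each matched 1 Ensembl gene. The set was chosen by measured values, because CHGA and SCG5 are among the genes with the lowest ratio of 9-month to 3-month tubules. Those ratios are therefore given as a description only.

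RNA sequencing counted the transcripts of 1 library per age. No genotype, breed or treatment was given for either calf, and the labels name no agent. Each library came from pieces of tubule cut from removed testes and flash frozen, so each age stands for 1 calf and 1 tissue sample. Depth was 29782234 counts at 9 months and 37600534 counts at 3 months. No replicate exists at either age, so that no difference has a replicate check and every value compares 2 tissue samples rather than the ages in general. In such bulk RNA, fewer cells of a type and less RNA per cell cannot be told apart.

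Endocrine cells and neurons keep peptide hormones in dense granules until a signal releases them. Granins are acidic proteins that condense with the hormones in the core of those granules, and several are themselves cut into active peptides. Proprotein convertases cut hormone precursors at pairs of basic residues, carboxypeptidases trim the exposed residues, and an amidating enzyme finishes many of the ends. In the testis, granin proteins have been described in Leydig cells, the androgen-producing cells that lie between the tubules.

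Most of these genes were much less abundant in 9-month tubules, with 1 clear exception. CHGA was 106-fold lower, SCG5 35.7-fold lower and CPE 11.2-fold lower in 9-month tubules, while CHGB was 39.5-fold higher. SCG2 and PCSK1N were lower by smaller factors, and SCG3 was scarce in both libraries. In all, 5 of the 7 genes were at least 2-fold lower in 9-month tubules with a counting interval that excluded a ratio of 1, a class that held 22.8% of the 18025 measured genes. In the other direction, 1 of the 7 was at least 2-fold higher, a class that held 28.0% of measured genes. At a limit of 16-fold, 2 members were lower, against 0.793% of measured genes, and 1 was higher, against 8.62%. Genes with 10 or more counts over both libraries are called measured, and all 7 members were. Because the set was picked on this same comparison, nothing is read from these shares. The median log2 ratio was -2.80 over the members and 0.02 over all measured genes.

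**Figure D1:**
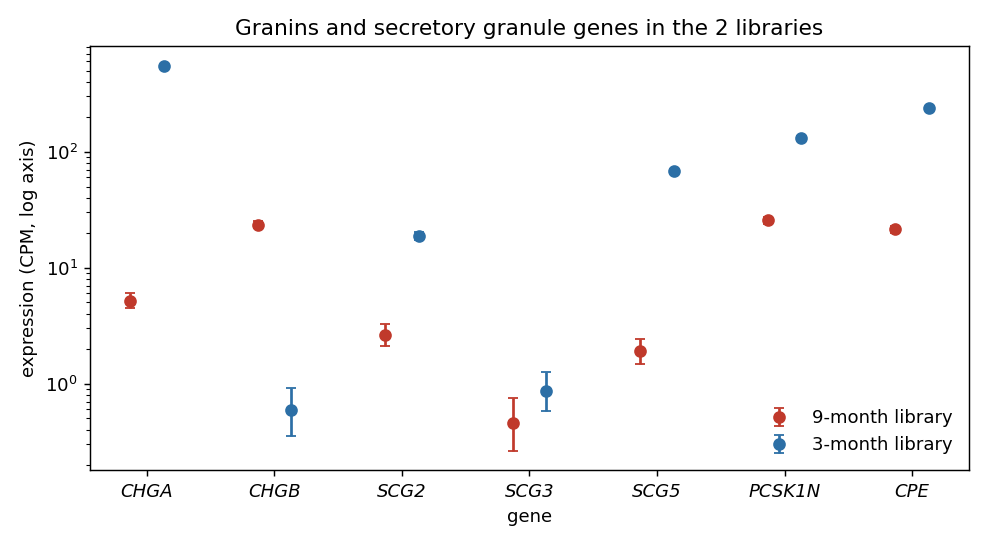
Expression of the 7 genes in CPM (counts relative to the scaled library size) on a log axis, with 9-month tubules in red left of 3-month tubules in blue; bars are 95% exact Poisson intervals, which cover counting error only. CHGB is the gene whose 9-month point lies far above its 3-month point, at 23.4 against 0.591 CPM.

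Chromogranin A, encoded by CHGA (ENSBTAG00000009836), is the best known granin and the precursor of peptides such as vasostatin and catestatin. It had 180 counts in 9-month tubules and 17589 counts in 3-month tubules. In CPM, which are counts relative to the library size scaled with TMM factors (a trimmed mean of log ratios), this was 5.17 (95% exact Poisson interval 4.44 to 5.98) and 547 (539 to 555). The 9-month level was thus 106-fold lower, with a 95% exact counting interval of 91.4 to 123. Of the 18025 measured genes, CHGA had rank 4 counted from the lowest log2 ratio, which was -6.71. By RPKM (counts per kilobase of gene and relative to library size, which allow comparison between genes) it had rank 12921 in 9-month tubules and rank 431 in 3-month tubules.

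Chromogranin B, from CHGB (ENSBTAG00000011782), is another core protein of the granule. Tubules held 814 counts of it at 9 months and 19 at 3 months. Its expression was 23.4 CPM (21.8 to 25.0) in 9-month tubules and 0.591 CPM (0.356 to 0.923) in 3-month tubules, a 39.5-fold higher level at 9 months with an interval of 25.2 to 66.0. The log2 ratio of 5.17 had rank 830 counted from the highest. The low count in 3-month tubules sets the width of this interval, but not its direction.

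SCG2 (ENSBTAG00000021588) encodes secretogranin II, from which the peptide secretoneurin is cut. Its counts were 92 in 9-month tubules and 601 in 3-month tubules, or 2.64 CPM (2.13 to 3.24) and 18.7 CPM (17.2 to 20.3). This is a 7.08-fold lower level in 9-month tubules, with an interval of 5.68 to 8.92. SCG3 (ENSBTAG00000017677), whose protein binds CHGA and the granule membrane, had only 16 counts in 9-month tubules and 28 in 3-month tubules. Its levels of 0.459 CPM (0.263 to 0.746) and 0.871 CPM (0.579 to 1.26) overlapped in their counting intervals. The 9-month level was 1.90-fold lower with an interval of 0.991 to 3.75, so a difference in SCG3 was not detectable at this depth.

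**Figure D2:**
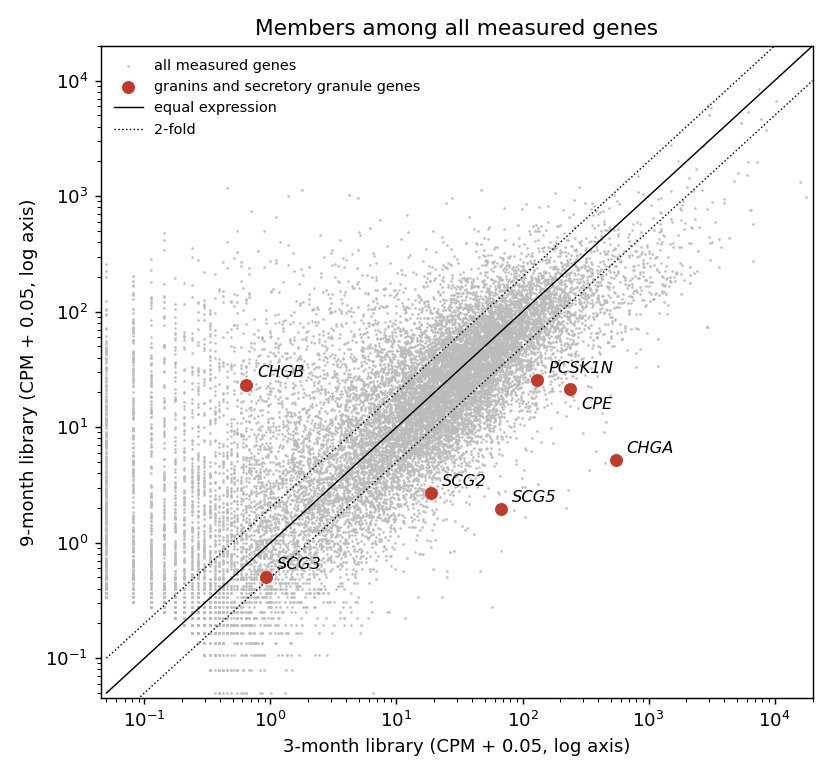
Expression of all 18025 measured genes (grey) and the 7 members (red) in 9-month tubules (vertical, CPM + 0.05, log axis) against 3-month tubules (horizontal, same scale); the solid line marks equal expression and the dotted lines 2-fold differences. CHGA and SCG5 lie near the lower edge of the cloud, CHGB lies above the upper dotted line, and SCG3 lies near the solid line at the low end.

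Relative to each other, the granins changed places. Summed per length, the 4 granins came to 15.9 RPKM in 9-month tubules and 251 RPKM in 3-month tubules. In 9-month tubules CHGB made up 70.5% of that sum, CHGA 19.7%, SCG2 8.21% and SCG3 1.55%. In 3-month tubules CHGA made up 97.1%, SCG2 2.70%, SCG3 0.136% and CHGB 0.0828%. CHGB was thus the leading granin in 9-month tubules and CHGA in 3-month tubules.

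Ratios of genes within a library do not depend on how the libraries are scaled. CHGA stood at 0.280 times CHGB by RPKM in 9-month tubules and at 1172 times CHGB in 3-month tubules. The ratio was 4186-fold lower in 9-month tubules, with an exact conditional interval of 2577 to 7120. Against SCG2, CHGA stood at 2.4 times in 9-month tubules and 36.0 times in 3-month tubules, a ratio 15.0-fold lower (11.5 to 19.5). These pairs, and those below, were picked with the values known.

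**Figure D3:**
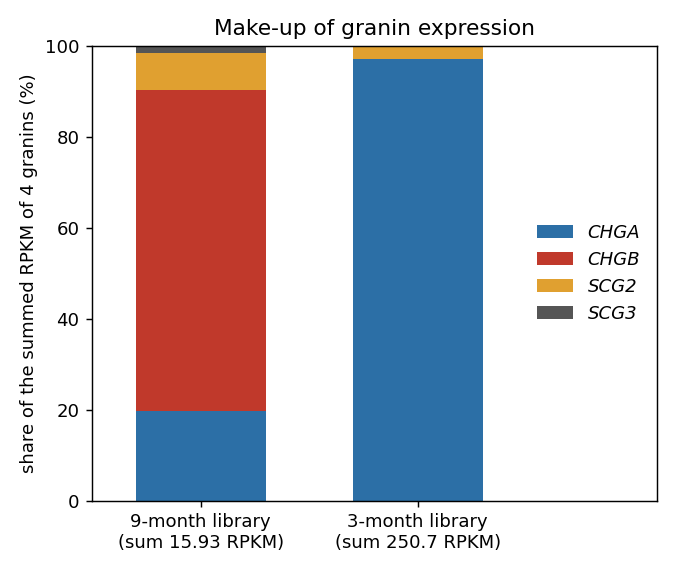
Share of each granin in the summed RPKM of CHGA, CHGB, SCG2 and SCG3, with 9-month tubules in the left bar and 3-month tubules in the right bar. CHGB fills 70.5% of the left bar, and CHGA fills 97.1% of the right bar.

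SCG5 (ENSBTAG00000032613) encodes 7B2, a chaperone that the convertase PCSK2 needs to mature. Its counts were 66 in 9-month tubules and 2175 in 3-month tubules, or 1.90 CPM (1.47 to 2.41) and 67.7 CPM (64.9 to 70.6). The 9-month level was 35.7-fold lower (28.0 to 46.3), with rank 28 from the lowest log2 ratio. An uncharacterised long noncoding RNA gene overlaps SCG5 in assembly ARS-UCD2.0, and since the strand setting of the counting is not given, reads of both could be mixed. No gene of that assembly overlaps any of the other members.

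PCSK2 itself had 6 counts in 9-month tubules and 155 in 3-month tubules and was 28-fold lower in 9-month tubules (12.6 to 77.5). SCG5 stood at 28.0 times PCSK2 by RPKM in 9-month tubules and at 35.7 times in 3-month tubules. The chaperone and its convertase were thus lower by similar factors, and the ratio between them was 1.28-fold lower in 9-month tubules with an interval of 0.445 to 2.99. The few PCSK2 counts leave room for a difference of up to that upper limit.

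PCSK1N (ENSBTAG00000013250) encodes proSAAS, a granin-like protein that inhibits the convertase PCSK1. Its counts were 892 in 9-month tubules and 4213 in 3-month tubules, or 25.6 CPM (23.9 to 27.3) and 131 CPM (127 to 135), a 5.12-fold lower level in 9-month tubules (4.76 to 5.51). PCSK1, which cuts many prohormones, had 81 counts in 9-month tubules and 326 in 3-month tubules and was 4.36-fold lower (3.41 to 5.63). By RPKM the inhibitor stood at 30.4 times its convertase in 9-month tubules and at 35.7 times in 3-month tubules, a ratio 1.17-fold lower (0.911 to 1.51). The inhibitor was therefore far more abundant than its target in both libraries. Of the 7 members, PCSK1N had the highest RPKM in 9-month tubules, at 30.8 RPKM and 53.6% of the members' sum, whereas CHGA did in 3-month tubules, at 243 RPKM and 49.1%.

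CPE (ENSBTAG00000016514), carboxypeptidase E, removes basic residues from the ends that convertases leave. Its counts were 745 in 9-month tubules and 7674 in 3-month tubules, or 21.4 CPM (19.9 to 23.0) and 239 CPM (233 to 244). This was an 11.2-fold lower level in 9-month tubules (10.3 to 12.1). CPD, a related carboxypeptidase of the Golgi that is not tied to granules, was 2.53-fold lower (2.45 to 2.62). By RPKM, CPE stood at 0.159 times CPD in 9-month tubules and at 0.699 times in 3-month tubules, so the ratio was 4.41-fold lower (4.06 to 4.78). PAM, the enzyme that amidates peptide ends, was abundant in both samples, with 9123 counts in 9-month tubules and 57277 in 3-month tubules. It was 6.80-fold lower in 9-month tubules (6.66 to 6.96), and an uncharacterised coding gene overlaps it in ARS-UCD2.0.

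Genes of the rest of the regulated secretory pathway went both ways. Over 8 lists with 126 measured genes, 34 were at least 2-fold lower in 9-month tubules, 37 at least 2-fold higher and 55 within these limits. Here and below, a gene past 2-fold whose counting interval included 1 is counted as within 2-fold. These are 27.0%, 29.4% and 43.7% of the genes, against 22.8% lower and 28.0% higher among all measured genes. Of all 18025 measured genes, 8875 were within these limits. The shares over all measured genes also apply beside each list below. The median log2 ratio of the 126 genes was -0.04. With library totals as the scale, 25 were lower and 46 higher, and the median turned to 0.41. With reference genes, 27 were lower and 46 higher, and the median was 0.30.

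The list labelled other granin-like genes had 3 of 3 measured genes at least 2-fold lower in 9-month tubules. These were GNAS, NUCB1 and NUCB2, and the NUCB genes encode calcium-binding proteins rather than granins. GNAS, whose locus encodes the G protein subunit Gs alpha and a granin-like protein, was 5.71-fold lower (5.59 to 5.83) over its 2 Ensembl genes. The products of this locus were not counted apart, and other genes overlap it in assembly ARS-UCD2.0, so its value is uncertain. NUCB2, the precursor of nesfatin-1, was 6.74-fold lower (6.19 to 7.35), and NUCB1, a calcium-binding protein of the Golgi, 4.29-fold lower (4.18 to 4.41). NUCB1 overlaps TULP2 in that assembly. VGF, a granin-like precursor, had 2 counts in 9-month tubules and 0 in 3-month tubules and was not measured. The list therefore says little about granin-like genes as such.

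Proprotein convertases went both ways, with 4 of 8 lower, 3 higher and 1 within 2-fold. PCSK1 and PCSK2, the convertases of dense granules, were lower, as given above. PCSK4, which in mice acts in spermatids and sperm, had 4849 counts in 9-month tubules and 704 in 3-month tubules, and was 6.36-fold higher (5.87 to 6.89). PCSK5 and PCSK6, which process growth factors along the general secretory route, were 6.68-fold (5.56 to 8.07) and 9.17-fold (6.71 to 12.8) higher. Noncoding genes and pseudogenes overlap both in ARS-UCD2.0. By RPKM, PCSK4 was at 80.8 in 9-month tubules, against 1.01 for PCSK1 and 0.0829 for PCSK2.

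Of 10 carboxypeptidase and amidation genes, 5 were lower, 1 higher and 4 between these limits (median log2 ratio -1.20). CPN2, a subunit of the plasma enzyme carboxypeptidase N, was 48.8-fold lower (30.7 to 82.8). CPXM1 was 7.34-fold lower (6.72 to 8.03) and CPXM2, another carboxypeptidase-like gene, 6.11-fold higher (4.31 to 8.88). CPE was thus not alone in this family in being lower, though several of these genes were not. Library totals or reference genes as the scale left 3 of the 10 lower.

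Among 14 genes of the granule membrane, 7 were higher, 2 lower and 5 between these limits (median log2 ratio 0.72). RESP18, a granule protein of endocrine cells, had 262 counts in 9-month tubules and 0 in 3-month tubules. With a floor of 3 counts it was at least 80.6-fold higher. SV2B, a vesicle glycoprotein, was 11.8-fold higher (9.33 to 15.2), and SLC18A2, the vesicular monoamine transporter, 5.22-fold higher (4.41 to 6.21). CYB561, an electron carrier of the granule membrane, was 2.93-fold higher (2.57 to 3.35). Noncoding genes overlap SV2B and CYB561 in ARS-UCD2.0.

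Of the 8 lists, genes for granule formation had the largest share within 2-fold, at 13 of 17, against 8875 of all 18025 measured genes. Another 3 were higher and 1 lower, and the median log2 ratio was -0.06. BAIAP3, which acts in the maturation of dense vesicles, was 5.70-fold higher (4.14 to 8.03), but it overlaps TSR3 in ARS-UCD2.0. HID1, needed for dense granule biogenesis, was 2.99-fold lower (2.5 to 3.58). ICA1, an adaptor of the Golgi and young granules, was 2.27-fold higher (2.13 to 2.42), and TBC1D5, a regulator of retromer that overlaps PLCL2, was 2.20-fold higher (2.02 to 2.39). Of 36 exocytosis genes, 11 were higher, 8 lower and 17 between these limits (median log2 ratio 0.02), while library totals as the scale gave 13 higher and 5 lower. With TMM these were 30.6% higher and 22.2% lower, near the 28.0% and 22.8% of all measured genes. RPH3A, an effector of the vesicle GTPase RAB3, had 1545 counts in 9-month tubules and 30 in 3-month tubules, and was 47.5-fold higher (33.2 to 70.7). UNC13D, a priming factor of lytic granules that overlaps UNK, was 4.42-fold higher (3.62 to 5.45). SYT1, the calcium sensor of fast release, was 5.65-fold lower (3.96 to 8.27), and SYT4, another synaptotagmin, 4.47-fold lower (4.07 to 4.91).

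**Figure D4:**
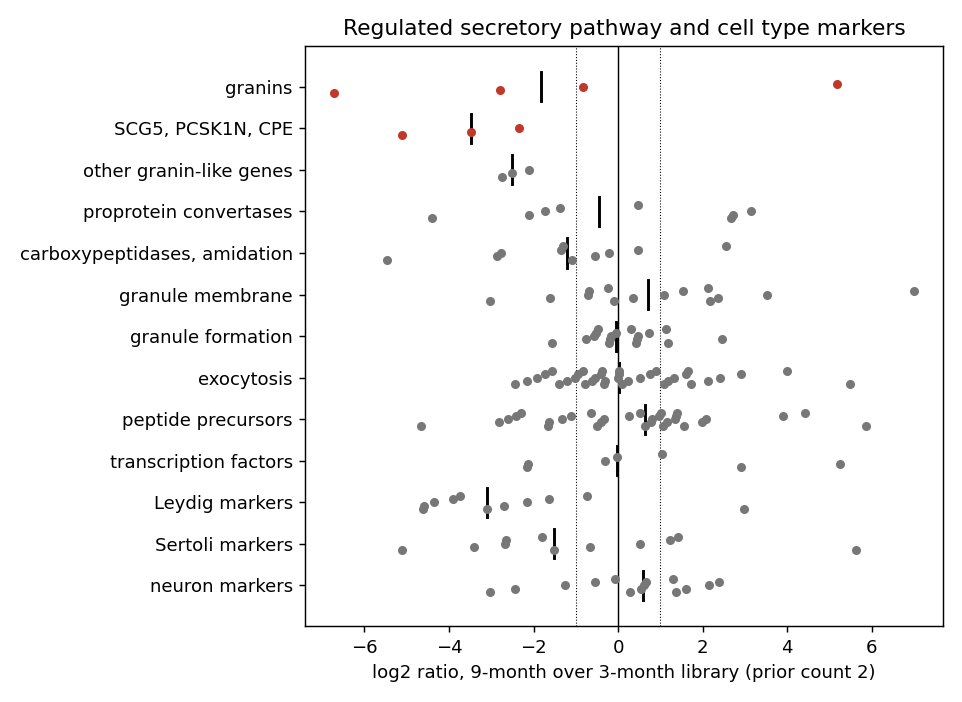
Log2 ratio of 9-month to 3-month tubules for each measured gene (dot), by list, with the members in red at the top, the list median as a black bar and dotted lines at 2-fold. Member dots lie left of 0 except for CHGB at 5.17, whereas most pathway lists spread to both sides and the Leydig markers lie mainly left of 0.

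Peptide precursors are the cargo of granules, and of 66 listed genes only 31 were measured, 63 having been found in the tables. Of the 31, 9 were higher, 9 lower and 13 between these limits (median log2 ratio 0.64), and 15 were higher with library totals or reference genes as the scale. PROK2, the precursor of prokineticin 2, had 247 counts in 9-month tubules and 2 in 3-month tubules, a ratio of 114 (31.2 to 946), and overlaps GPR27 in ARS-UCD2.0. INSL6, a relaxin-like peptide of male germ cells, was 15.1-fold higher (12.2 to 19.0), and BDNF, a secreted neurotrophin, 28.1-fold higher (12.7 to 77.7). PENK, the enkephalin precursor, was singled out with its values known for its abundance, with 3799 counts in 9-month tubules and 18682 in 3-month tubules. It was 5.33-fold lower (5.15 to 5.52). By RPKM the most abundant cargo gene at both ages was INSL3, a Leydig cell hormone, with 3018 and 6825 RPKM in 9-month and 3-month tubules.

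Transcription factors linked to endocrine granules or to cyclic AMP had 3 of 7 measured genes higher, 2 lower and 2 within 2-fold. CREM, which drives spermatid genes in mice, was 38.6-fold higher (32.6 to 46.0). CREB1, a general activator of cyclic AMP targets that overlaps METTL21A in ARS-UCD2.0, had 523 counts in 9-month tubules and 491 in 3-month tubules, a ratio of 0.983 (0.867 to 1.11). CREB3L2, which raises the capacity of the secretory pathway, was 4.39-fold lower (4.01 to 4.81), and CREB3L1 was at 15.8 CPM in 9-month tubules and 19.8 CPM in 3-month tubules. Uncharacterised or small noncoding genes also overlap INSL6, SYT1, CREB3L1 and CREB3L2 in ARS-UCD2.0. INSM1, a neuroendocrine regulator, had 0 counts in both libraries, which allows at most 0.0861 CPM in 9-month tubules and 0.0933 CPM in 3-month tubules at a floor of 3 counts.

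Genes with the most similar pair of levels were sought among 13428 genes, by the distance in log2 CPM over the libraries. With only 2 libraries, such likeness says no more than that both levels are close. Nearest to CHGA were COL21A1, a collagen, at a distance of 0.28, the protease KLK1 at 0.59 and the matrix proteoglycan LUM at 0.75. They stood at 4.88, 6.23 and 4.22 CPM in 9-month tubules and at 454, 381 and 337 CPM in 3-month tubules. Nearest to SCG5 were CHRD, an antagonist of bone morphogenetic proteins, at 0.05, the sterol reductase TM7SF2 at 0.33 and FEZ1, an adaptor of kinesin transport, at 0.44.

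Markers of the cells around the granin genes also differed between the libraries. Beside the counts of markers here and below, 22.8% of all measured genes were at least 2-fold lower and 28.0% higher. Genes of the labelled tissue were present, such as the Sertoli cell gene CLU at 1359 and 4725 CPM and the germ cell helicase DDX4 at 404 and 23.5 CPM in 9-month and 3-month tubules. Spermatid markers summed to 3568 CPM in 9-month tubules and 48.0 CPM in 3-month tubules, with 10 of 10 higher. Leydig cells lie outside the tubules, yet their 11 measured markers summed to 2873 CPM in 9-month tubules and 19229 CPM in 3-month tubules, with 9 lower, 1 higher and 1 within 2-fold. Their log2 ratios ran from -4.62 for STAR, the cholesterol carrier of steroid synthesis, to 2.99, and no marker was at 0 counts. CHGA at -6.71 and SCG5 at -5.11 lay below that whole range and CHGB at 5.17 above it, while CPE, SCG2, SCG3 and PCSK1N lay within it. Sertoli markers ran from -5.12 to 5.62, a range that held both SCG5 and CHGB. Fibroblast markers, from -6.30 to -0.48, also held SCG5, and spermatid markers, from 4.60 to 12.07, also held CHGB. CHGA lay below the range of each marker list. Because CHGA and SCG5 were chosen for their low ratios, their place against these ranges largely follows from that choice. Nothing is read from it. The part of a change in Leydig cells in these results was not tested.

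Set against the summed Leydig markers, 5 of the 7 members differed less than on the TMM scale. CHGA had 1.80 counts per 1000 Leydig marker counts in 9-month tubules and 28.5 in 3-month tubules, which is 15.8-fold lower. SCG5 had 0.660 and 3.52 and was 5.34-fold lower, and CPE had 7.45 and 12.4 and was 1.67-fold lower on that scale. SCG2 was nearly level, at 0.919 in 9-month tubules and 0.972 in 3-month tubules. PCSK1N turned round, with 8.91 in 9-month tubules and 6.82 in 3-month tubules, while CHGB had 8.14 and 0.0307 and was 265-fold higher. The sum is carried mainly by INSL3, STAR and CYP17A1, and against STAR alone CHGA was 4.31-fold lower (3.72 to 5.0), SCG5 1.45-fold lower (1.14 to 1.86), CPE 2.20-fold higher (2.04 to 2.38) and PCSK1N 4.80-fold higher (4.45 to 5.17). Against INSL3 alone, CHGA was 34.2-fold lower (29.6 to 39.7), CPE 3.61-fold lower (3.35 to 3.89) and PCSK1N 1.65-fold lower (1.54 to 1.78). CPE and PCSK1N were thus both higher against STAR and both lower against INSL3.

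**Figure D5:**
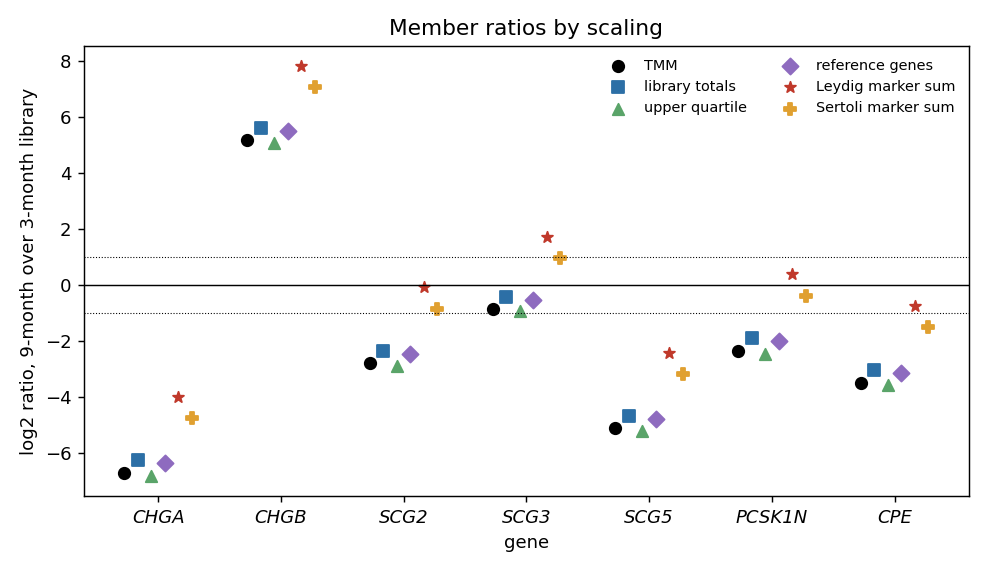
Log2 ratio of 9-month to 3-month tubules for each member under 6 ways of scaling the libraries, with dotted lines at 2-fold. CHGA and SCG5 lie below the lower dotted line and CHGB above the upper one under every scaling shown, whereas SCG2, PCSK1N and CPE come within 2-fold when the sum of Leydig markers (red stars) is the scale.

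Sertoli cells line the tubule, and 6 of their 11 measured markers were lower in 9-month tubules, 3 higher and 2 within 2-fold, with sums of 2278 CPM in 9-month tubules and 8948 CPM in 3-month tubules. Per 1000 Sertoli marker counts CHGA had 2.27 in 9-month tubules and 61.2 in 3-month tubules, a 27.0-fold lower value. Fibroblast markers summed to 1140 and 3849 CPM in 9-month and 3-month tubules, with 4 of 7 lower. Endothelial markers summed to 126 and 206 CPM with 7 of 8 lower, and macrophage markers to 275 and 573 CPM with 6 of 10 lower. Among all measured genes 22.8% were lower. Peritubular myoid markers, at 737 and 723 CPM, were near level in sum, but 2 of 7 were higher, 3 lower and 2 within 2-fold. Their log2 ratios ran from -2.85 to 2.29. Spermatogonial markers, at 551 and 157 CPM, had 4 of 8 higher and 4 within 2-fold. Nearly all of the difference between these sums came from DDX4, the germ cell helicase, at 404 and 23.5 CPM. Per 1000 spermatid marker counts CHGB had 6.55 in 9-month tubules and 12.3 in 3-month tubules, a 1.88-fold lower value. Against the sum of each other marker list CHGB was higher in 9-month tubules. What share each of these cell types had in the member values was not tested.

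Granins also mark nerves and chromaffin cells. The 14 neuron markers summed to 192 CPM in 9-month tubules and 69.4 CPM in 3-month tubules, with 5 higher, 3 lower and 6 within 2-fold. TUBB3, a tubulin listed here as a neuron marker, gave the largest part of this sum, at 154 CPM in 9-month tubules and 34.7 CPM in 3-month tubules. Nearly all of the difference between the 2 sums came from this gene. SYP and SYT1, both genes of synaptic vesicles, were among the lower ones, at 0.373 and 1.06 CPM in 9-month tubules and at 3.45 and 6.0 CPM in 3-month tubules. Of 7 measured chromaffin and sympathetic markers 5 were higher and 1 lower, with sums of 59.6 and 19.0 CPM in 9-month and 3-month tubules, carried by SLC18A2 and CYB561. DBH, the defining enzyme of noradrenaline synthesis, had 0 counts in 9-month tubules and 1 in 3-month tubules. Mast cell markers summed to 2.61 and 1.18 CPM in 9-month and 3-month tubules. Schwann cell markers summed to 192 CPM in 9-month tubules and 547 CPM in 3-month tubules, with 2 of 7 higher and 2 lower. S100B was the most abundant of these, at 91.9 and 384 CPM in 9-month and 3-month tubules, and gave most of the difference between the sums. PMP22 was the other lower gene. The 2 higher genes were SOX10, at 3.93 and 1.62 CPM, and ERBB3, at 14.2 and 5.23 CPM, in 9-month and 3-month tubules.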

How the data were processed

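Tubule pieces were frozen and total RNA was taken with a column kit, per the labels' protocols. The tools named are Trimmomatic 0.33 and STAR 2.4.0, and the bovine build is UMD3.1, per the submitters' processing notes. How reads were counted (program, annotation, strand, molecular identifiers) is not given in the sources used here. The deposited tables have no header, so units were read from the values. The deposited counts are raw whole numbers per gene. The RPKM values the authors deposited equal counts per kilobase of the listed length and relative to the total count, within 0.000496%.

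Counts were scaled by TMM in edgeR 4.0.16 (R 4.3.3), whose factors were 1.17 (9 months) and 0.855 (3 months). Measured genes had 10 or more counts over both libraries. Log2 ratios, always 9-month over 3-month, carry a prior count of 2, and folds do not. Brackets hold 95% intervals: exact conditional binomial (Clopper-Pearson) for folds, exact Poisson for CPM, and for ratios of gene pairs exact conditional, or on the log scale where every count was above 50. Such intervals, and floors, cover only counting error, and reads without molecular identifiers need not be independent molecules. "At least 2-fold" also required an interval that excluded 1. With 1 library per age there is no test and no p-value. Other settings were library totals, upper quartile, DESeq2 1.42.0 size factors, reference genes, other priors, minimums and folds. The procedure was run on simulated data that held counting error only and changed few genes. Far more genes differed between these libraries, so that run does not show how the procedure performs on them.

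The members and lists were chosen with earlier results of these data known. The lists held 314 entries, of which 15 were not used here and 5 were found under an older symbol. Counts under a symbol with several Ensembl genes were summed. Named genes were all members, up to 4 per pathway list with the largest absolute log2 ratio and 5 CPM or more in either library, PCSK1, PCSK2, PAM, VGF and INSL3, up to 3 of the most abundant markers per list, and the 3 genes nearest to CHGA and to SCG5. Other genes were named with their values known. Some genes that this rule names are not reported here. Names and overlaps came from the RefSeq table of ARS-UCD2.0, in which 7 of 7 members matched by symbol. Its coordinates are not printed, since the files use another build, and no sequences were used here. Columns of other samples numbered 0.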

Additional observations from a re-analysis of the deposited data

How the results depend on the processing

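The counts of 5 members lower and 1 higher held with library totals, DESeq2 size factors, reference genes and TMM without mitochondrial and ribosomal protein genes. With upper-quartile scaling SCG3 joined the lower ones, at a log2 ratio of -0.94. Over the planned settings, the log2 ratio of CHGA ran from -6.81 to -6.26, of SCG5 from -5.22 to -4.67 and of CHGB from 4.73 to 5.76. Relative to TMM, library totals shifted log2 ratios taken without the prior count by 0.45, reference genes by 0.35 and the upper quartile by -0.10. With the prior count the shift was smaller for genes of few counts, such as SCG3, which moved from -0.84 to -0.43 with library totals. The median log2 ratio of the members was -2.35 with library totals, -2.45 with reference genes and -2.37 with the deposited RPKM values, and that of the pathway genes was 0.41 and 0.30 with library totals and reference genes. At 4-fold, 19 pathway genes were lower and 22 higher. Marker sums of 3 cell types were scales chosen after seeing the data. With peritubular myoid markers, which themselves went both ways, the counts of 5 lower and 1 higher held, with a median of -2.82. With the sum of Leydig markers 2 were lower and 2 higher, with a median of -0.08, and PCSK1N reversed to 0.39. With Sertoli markers 3 were lower and 2 higher, with a median of -0.84. With Leydig and with Sertoli markers SCG3 was the added higher gene. These shifts follow from the scale itself. No paired analysis was possible because each age has 1 library. Depth limits SCG3, PCSK2 and the 3-month value of CHGB, and leaving out a library leaves no comparison.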
